A study of Rattus norvegicus with 24 samples.

Results

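Of 39 genes known to be switched on by interferon and listed by symbol, 38 were found in the deposited table of 20318 features from rat hippocampus. Of the 38, 37 averaged 10 or more normalised counts over the libraries and entered the test across 16119 genes. Ifit1 was found at 0 to 6.53 normalised counts per library and was not tested, and Xaf1 was not found by that symbol. The genes cover 4 transcription factors, 5 sensors of foreign nucleic acid and their regulators, 10 effectors that bind or edit RNA, 8 other antiviral effectors, 6 genes of the ubiquitin-like ISG15 and ADP-ribosyl system, and 5 others.

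The study sequenced hippocampal RNA of female rats that were 6 months old at surgery, in 24 libraries. The SHAM group (n = 7) kept its ovaries and received vehicle for 7 weeks, and the OVX group (n = 7) had its ovaries removed and received vehicle for 7 weeks. Both other groups were ovariectomised as well. The Prevention group (n = 5) then received E2, the estrogen of the study, for 5 weeks, and the Treatment group (n = 5, replicates numbered 1, 2, 5, 6 and 7) received vehicle for 3 weeks and E2 for the 2 weeks that followed. The E2 groups were thus sampled 2 weeks earlier after surgery than the vehicle groups, as far as the labels give the times, and this interval cannot be told apart from E2 in any comparison with OVX or SHAM. The labels name separate samples, and no litter, cage or sequencing batch. The p-values therefore measure the spread between these samples.

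Type I interferons signal through a receptor of the subunits Ifnar1 and Ifnar2 and the kinases Jak1 and Tyk2. These phosphorylate Stat2, which joins Irf9 in a complex that binds a promoter element, the interferon-stimulated response element (ISRE). Sensors of viral or displaced self nucleic acid start interferon production, Irf7 amplifies it, and Usp18 shuts the receptor off again. In the brain, microglia, endothelial cells, astrocytes and neurons all carry a basal level of these transcripts. In RNA from whole tissue, fewer cells of a type and less RNA per cell cannot be told apart.

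The promoters are shown first because the ISRE is the element the listed genes are known to share. RefSeq promoters of the rat build GRCr8 were available for 26 of the 38 genes. The core searched was GAAA, any 2 bases and GAAA, on either strand (the other strand reads TTTC, any 2 bases and TTTC), in the 250 bases before the annotated start. It was present in 15 of the 26 (57.7%), and in 1140 of all 33469 promoters (3.41%). Each stretch below is 30 bases, read 5′ to 3′ on the strand of the gene, with the ISRE match in capitals. The first 4 belong to genes among the smallest p-values of the comparisons. Oas1b is the near copy of Oas1a, shown because their measured changes between groups were unlike, though neither gene passed the threshold given below. Oas1b was chosen after its values were seen.
Irf7, minus strand, chr1:205800073-205800102: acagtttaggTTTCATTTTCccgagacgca
Oas1a, plus strand, chr12:41330418-41330447: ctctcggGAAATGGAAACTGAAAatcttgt
Rsad2, minus strand, chr6:48788248-48788277: ctggttcaacTTTCATTTTCagaaaacaga
Ifit3, plus strand, chr1:241527272-241527301: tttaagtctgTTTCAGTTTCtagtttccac
Oas1b, minus strand, chr12:41395889-41395918: ttcccggGAAATGGAAACTGAAAaccctat

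The match began 69 bases before the start in Irf7, 41 in Oas1a, 147 in Rsad2, 44 in Ifit3 and 59 in Oas1b. In Oas1a and Oas1b, 2 matches overlap, and the capitals spell the same letters in both genes. No ISRE match was found in the window of Stat2, Irf9, Irf1, Cmpk2, Herc6, Parp9, Dtx3l, Trim25, Mx1, Ifi35 or Oasl, which says only that these letters are absent there. A match is a description of the sequence, and binding was not measured.

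Several of the genes lie side by side in the same annotation. No protein-coding gene separates Ifit2 from Ifit3 on chromosome 1, Rsad2 from Cmpk2 on chromosome 6, Oasl from Oasl2 on chromosome 12, or Parp9 from Dtx3l and Dtx3l from Parp14 on chromosome 11. Mx1 and Mx2 have 1 protein-coding gene between them, and Oas1a and Oas1b have 2. Reads of near copies such as these could be shared out by the quantification, so the split between Oas1a and Oas1b, Mx1 and Mx2, and Oasl and Oasl2 is uncertain.

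Normalised counts summed to between 35.4 M and 38.8 M (mega) per library. A feature named LOC257642 divided the libraries into sets that the labels do not name and that run largely along the groups. On the log2 scale it was 16.8 to 19.7 in 7 libraries, namely all 5 of Prevention with Treatment 1 and Treatment 2, and 14.0 to 15.2 in the other 17. Choroid plexus markers, the defining transcripts of a tissue that lies against the hippocampus, summed to between 505 and 160154 normalised counts per library, and markers of the thalamus to between 3002 and 14992. Hippocampal neuron markers summed to 53044 to 92134 and were present in every library. Of 12 leukocyte markers, 9 were too low to be tested, among them Cd3d at most 4.29 and Gzma at most 4.47 normalised counts in any library, while Cd3e was 33.5 to 447, Cd4 124 to 357 and Ptprc 159 to 261. Siglech of plasmacytoid dendritic cells was at most 10.9.

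In SHAM, OVX and Treatment, the interferon-induced genes spanned a wider range between libraries of the group than the distance between any group means. The mean log2 value over the 37 genes was 7.87 ± 0.17 (SD, n = 7) in SHAM, 8.07 ± 0.21 (n = 7) in OVX, 7.80 ± 0.05 (n = 5) in Prevention and 7.99 ± 0.20 (n = 5) in Treatment. The lowest and highest libraries were 7.66 and 8.19 in SHAM, 7.75 and 8.33 in OVX, 7.74 and 7.87 in Prevention, and 7.76 and 8.26 in Treatment, so all 4 groups overlapped. Prevention stood out by its narrow range and not by a level that the other groups did not reach.

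**Figure D1:**
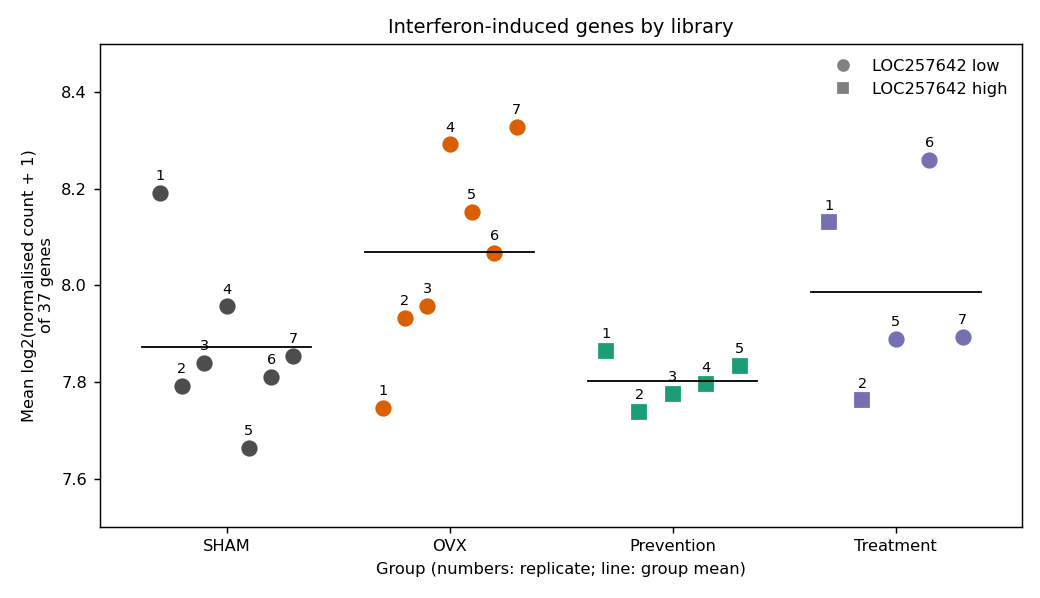
Mean log2(normalised count + 1) of the 37 tested interferon-induced genes in each library (points, numbered by replicate), by group, with a line at the group mean; squares mark libraries with high LOC257642 and circles those with low. The 5 Prevention libraries lie between 7.74 and 7.87, while single libraries of the other groups reach 8.19 to 8.33.

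Single libraries set the upper and lower ends for many genes at once. SHAM 1 was the highest of 7 SHAM libraries for 21 of the 37 genes, and Treatment 6 was the highest of 5 Treatment libraries for 23. OVX 1 was the lowest of 7 OVX libraries for 18 genes, and Treatment 2 was the lowest of 5 for 19. The same counts over all tested genes are not given here, so whether these libraries were as extreme over all genes is not shown. Treatment 1 and Treatment 2 share the high level of LOC257642, yet their means over the interferon-induced genes were 8.13 and 7.76. Within OVX, libraries 4, 5, 6 and 7 all lay above libraries 1, 2 and 3 for 13 genes, which are Irf7, Ifih1, Ddx58, Oas1a, Rsad2, Usp18, Ifi44, Parp14, Dtx3l, Herc6, Trim25, Zbp1 and Sp100. This is 35.1% of the 37, and the same order was found in 8.44% of all tested genes. The order was noticed in the data and has no counterpart in the labels.

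**Figure D2:**
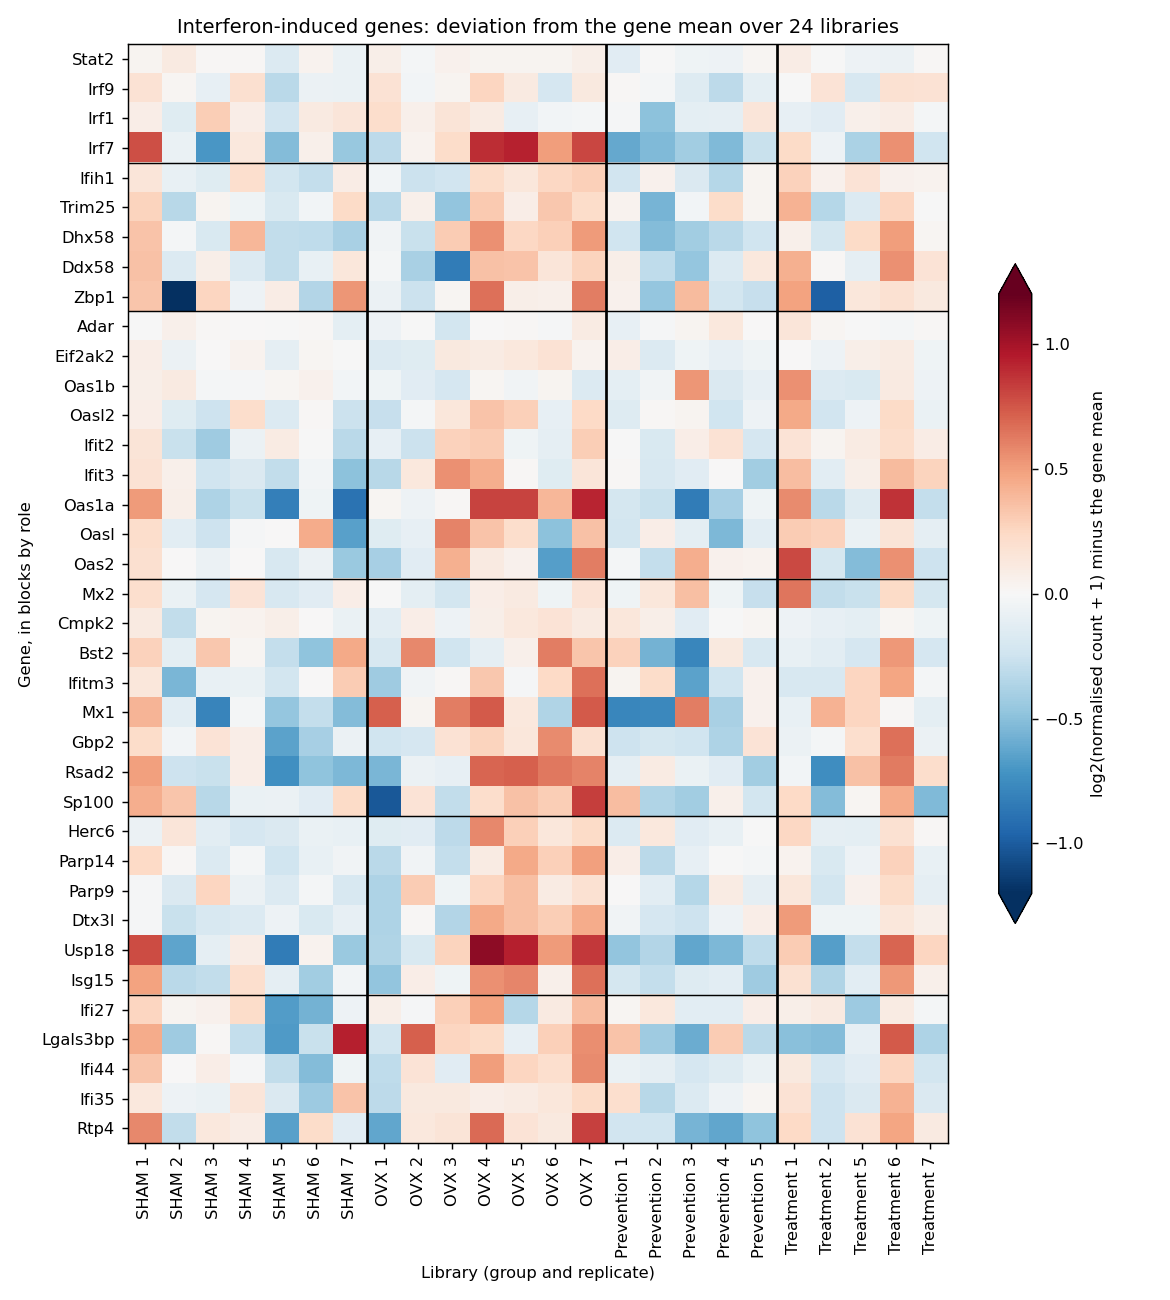
Deviation of log2(normalised count + 1) from the mean of each gene over 24 libraries (red above, blue below), with libraries in columns by group and 37 genes in rows by role. SHAM 1, OVX 4, OVX 7 and Treatment 6 are red over most rows, OVX 1 and Treatment 2 are blue over many, and the Prevention block is pale.

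The spread between libraries of a group was wide for Usp18, Zbp1, Lgals3bp and Oas1a and narrow for Stat2, Adar, Eif2ak2 and Cmpk2. This residual SD on the log2 scale had a median of 0.271 over the 37 genes and 0.151 over all tested genes. Since low values vary more, the comparison was repeated for genes with a mean of 50 to 500. In that range the median was 0.281 over 25 interferon-induced genes and 0.225 over all 4758 genes, and 19 of the 25 lay above the latter. It was 0.492 for Usp18, the highest, and 0.0644 for Stat2, the lowest. By group, the median SD of the 37 genes was 0.227 in SHAM, 0.312 in OVX, 0.176 in Prevention and 0.265 in Treatment, against 0.136, 0.159, 0.130 and 0.142 over all tested genes. The SD was smaller in Prevention than in OVX for 29 of the 37 genes, and for 64.7% of all tested genes.

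The comparison of OVX with SHAM asks what loss of the ovaries did with no hormone given. No interferon-induced gene passed the threshold of 0.05 on the adjusted p in limma, and no gene of the 16119 did (0%). The smallest adjusted p among the 37 was 0.795. Measured means were higher in OVX for 35 of the 37 genes and lower for 2, Adar and Oas1b, with a median change of 0.17 on the log2 scale. Over all tested genes the median was 0.0043, with 51.7% higher. At an unadjusted p under 0.05, 7 of the 37 (18.9%) were higher and 0 were lower, against 2.88% of all tested genes higher. These 7 were Mx1, Oas1a, Irf7, Usp18, Rsad2, Dtx3l and Dhx58. The genes were measured in the same libraries and moved together between them, so their counts are not independent of one another.

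Comparing Prevention with OVX addresses E2 begun at ovariectomy. Again 0 of the 37 genes passed the adjusted threshold, where 49 of 16119 genes (0.304%) did. Measured means were lower in Prevention for 33 of the 37 genes and higher for 4 (Adar, Oas1b, Oas2 and Mx2), with a median of -0.19, against a median of 0.00081 and 49.7% lower over all tested genes. At an unadjusted p under 0.05, 8 of the 37 (21.6%) were lower and 0 higher, where 8.56% of all tested genes were lower. They were Irf7, Dhx58, Usp18, Rtp4, Oas1a, Mx1, Isg15 and Ifi44. No gene of the 37 had all 5 Prevention libraries below all 7 OVX libraries, as 0.664% of all tested genes did. Both comparisons use the same 7 OVX libraries. Markers of other tissues also differed in measured level: of meningeal fibroblast markers 5 of 6 were lower in Prevention than in OVX (median -0.22), of thalamus markers 7 of 8 were higher (median 0.46) and of blood markers 3 of 4 were higher (median 0.33), and none passed. In Treatment against Prevention these medians were 0.33, -0.45 and -0.15. Their part in the interferon-induced genes was not tested. The 49 became 1 without Prevention 3 and 481 without OVX 7, and the 37 gave 0 without any single library.

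Choroid plexus markers differed in measured level as well. All 8 tested were higher in OVX than in SHAM (median 0.52) and higher in Prevention than in OVX (median 0.50). All 8 were lower in Treatment than in Prevention (median -1.52) and lower in Treatment than in OVX (median -0.995). None passed in these comparisons, and none had an unadjusted p under 0.05 (limma). The mean of the log2 values of the choroid plexus markers was added as a covariate after the data were seen. With it, 2 of the 37 passed in Prevention against OVX, where 257 of 16119 genes (1.59%) did. The change of Irf7 was then -0.91 (SE 0.23, adjusted p = 0.0469, limma) and that of Lgals3bp -0.48 (SE 0.12, adjusted p = 0.0469). With the library set of LOC257642 as a term, 32 of the 37 were lower and 5 higher, and the median SE went from 0.150 to 0.279. All Prevention libraries are in 1 set and all OVX libraries in the other, so E2 and the set were separated in that fit by Treatment alone, and no comparison within a set could be made.

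Treatment compared with OVX addresses E2 begun after a delay and given for 2 weeks, where Prevention had 5 weeks. The delay and the duration of E2 cannot be told apart in any comparison of Treatment. No gene of the 37 passed, and no gene of all tested did (0%). Mean log2 values were lower in Treatment for 24 of the 37 and higher for 13, with a median change of -0.06, against -0.0016 over all tested genes. None of the 37 reached an unadjusted p under 0.05 in either direction, where 3.09% of all tested genes did on the lower side. Treatment and Prevention were also set side by side, a comparison in which the OVX libraries enter only the shared estimate of spread. Again 0 of the 37 and 0 of 16119 genes (0%) passed. Mean log2 values were higher in Treatment for 33 of the 37, with a median change of 0.15 against -0.0023 over all tested genes. At an unadjusted p under 0.05, 4 of the 37 (10.8%) were higher, where 2.76% of all tested genes were. These 4 were Dhx58, Rtp4, Ifit3 and Ifih1. Without Treatment 6 the median was 0.08 against Prevention and -0.13 against OVX, and without Treatment 2 the latter was -0.01.

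Against SHAM, Prevention had 0 of the 37 genes past the adjusted threshold, beside 57 of 16119 (0.354%), with 27 lower, 10 higher and a median of -0.05 (limma). At an unadjusted p under 0.05, 0 of the 37 were lower or higher, where 5.85% of all tested genes were lower. The 57 became 10 without Prevention 2 and 153 without SHAM 5. Treatment had 0 of the 37, beside 1 of 16119 (0.0062%), with 31 higher, 6 lower and a median of 0.13. Ifit3 and Ifit2 (5.41% of the 37) were higher there at an unadjusted p under 0.05, where 3.29% of all tested genes were. By measured mean over the 37 genes the order was thus OVX, Treatment, SHAM and Prevention from high to low, and neighbours in this order differed by less than the SD of at least 1 of the 2 groups.

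**Figure D3:**
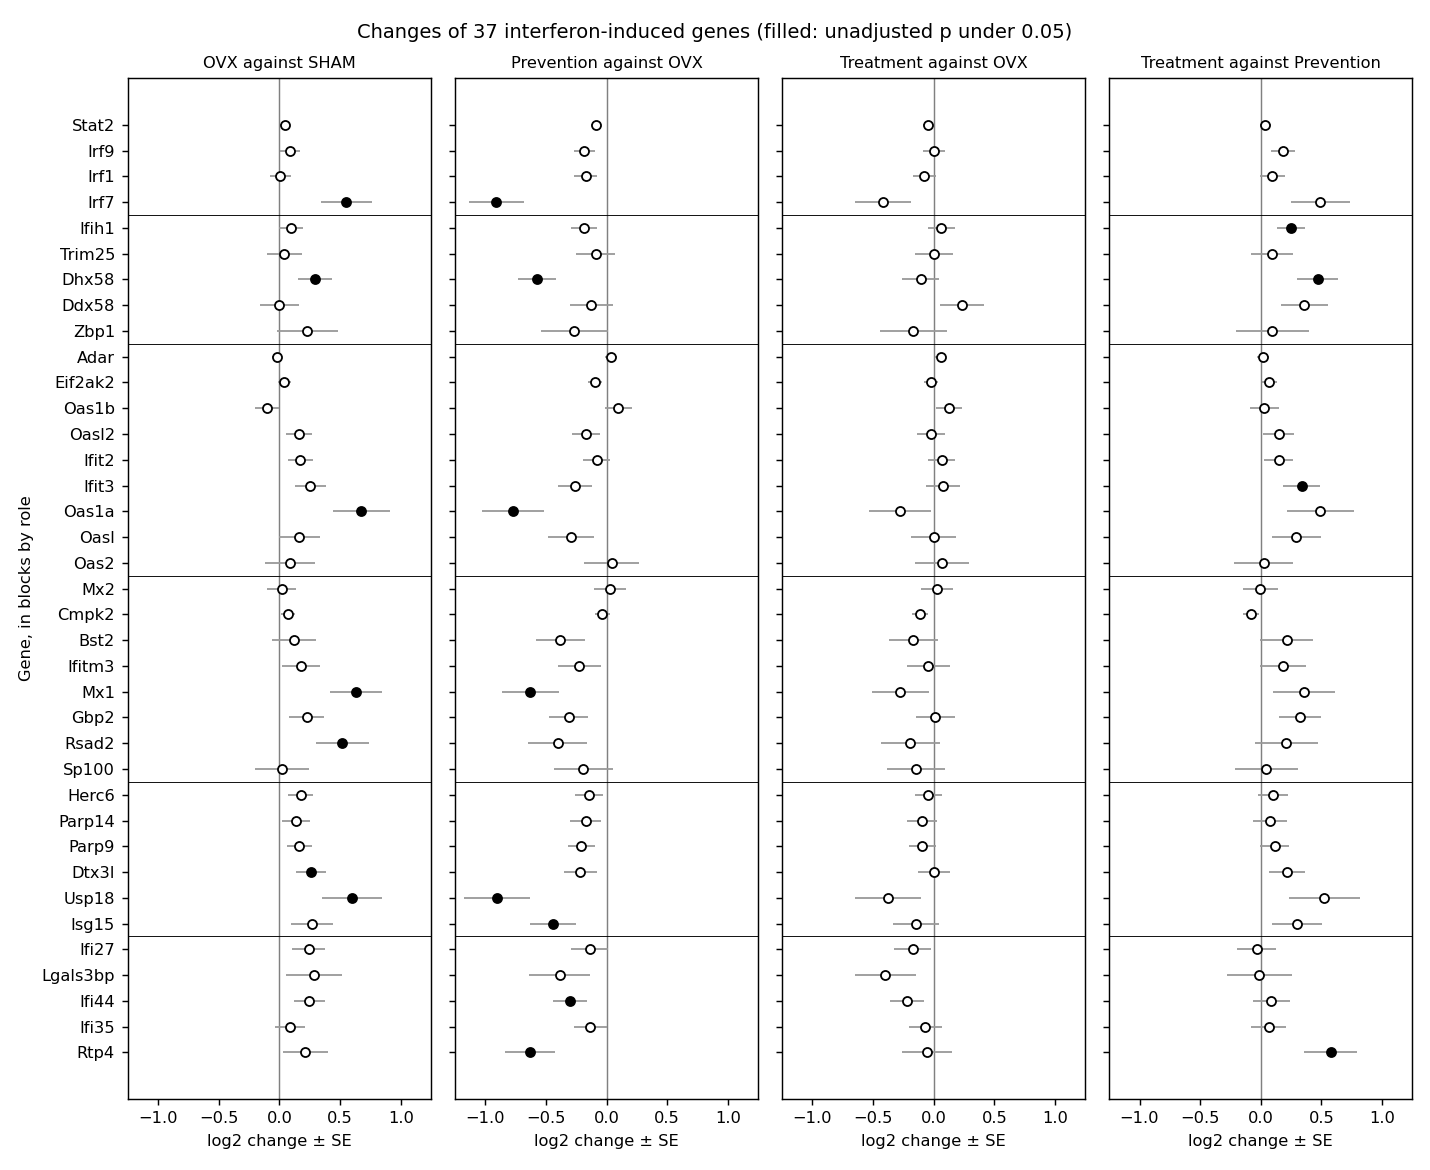
Log2 change ± SE of the 37 tested genes (rows, in blocks by role) in 4 comparisons; filled points have an unadjusted p under 0.05 and open points do not. Points lie mostly right of 0 in OVX against SHAM (35 of 37) and in Treatment against Prevention (33 of 37), and mostly left of 0 in Prevention against OVX (33 of 37), and none passed the adjusted threshold.

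Among the transcription factors, Irf7, the factor that amplifies interferon production, had the smallest p in Prevention against OVX. Its normalised counts were 120 at the lowest, 184 at the median and 333 at the highest in SHAM, and 157, 277 and 370 in OVX. In Prevention they were 127, 135, 145, 135 and 162, and in Treatment 1, 2, 5, 6 and 7 they were 229, 187, 149, 285 and 165. Prevention thus lay low, with 4 of 5 libraries below every OVX library and the fifth just above the lowest, while SHAM and Treatment each spanned both.

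The change of Irf7 was 0.55 (SE 0.21, adjusted p = 0.795, limma) in OVX against SHAM and -0.91 (SE 0.23, adjusted p = 0.0622) in Prevention against OVX. In Treatment it was -0.42 (SE 0.23, adjusted p = 0.711) against OVX and 0.49 (SE 0.25, adjusted p = 0.918) against Prevention. With the library set as a term, the value in Prevention against OVX was -1.02 and did not pass (limma). In that fit the median SE over the 37 genes was 0.279, beside 0.150 without the term. The Irf7 stretch printed above holds 1 ISRE match.

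The remaining transcription factors differed little. Irf9, the DNA-binding partner of Stat2, was 765 ± 92.1 (SD, n = 7) in SHAM, 812 ± 82.6 in OVX, 715 ± 62.3 in Prevention and 814 ± 89.6 in Treatment, and its change in Treatment against Prevention was 0.18 (SE 0.10, adjusted p = 0.918, limma). Stat2 was 1863 ± 111, 1915 ± 40.9, 1808 ± 75.7 and 1856 ± 83.0 in the same order. Irf1, which also answers to interferon gamma, was 306 ± 37.1, 306 ± 23.1, 274 ± 42.7 and 290.3 ± 19.9.

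Of the sensors, Dhx58 (LGP2), which regulates the RNA helicase sensors, separated Treatment from Prevention. It was 116, 135 and 203 at the lowest, median and highest in SHAM and 127, 187 and 224 in OVX. In Prevention it was 129, 106, 115, 122 and 130, and in Treatment 160, 132, 180, 217 and 156. All 5 Treatment libraries lay above all 5 Prevention libraries, and it was the only one of the 37 without overlap in that comparison, where 0.546% of all tested genes were higher without overlap.

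The change of Dhx58 in Treatment against Prevention was 0.47 (SE 0.17, adjusted p = 0.740, limma) and in Prevention against OVX -0.57 (SE 0.15, adjusted p = 0.0695). With the library set as a term the second value was -0.24. Within the high set, which holds 2 Treatment libraries, the first value was 0.27.

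Ifih1 (MDA5) and Ddx58 (RIG-I), the helicases that detect viral RNA, had their highest group means in Treatment. Ifih1 was 184 ± 24.3 in SHAM and 197 ± 30.2 in OVX (n = 7 each). It was 172 ± 20.4 in Prevention and 204 ± 14.6 in Treatment (n = 5 each). Its highest library was OVX 7 at 229, and its change in Treatment against OVX was 0.06 (SE 0.11, adjusted p = 0.910, limma). In Treatment against Prevention, 4 of 5 Treatment libraries exceeded every Prevention library, with a change of 0.25 (SE 0.12, adjusted p = 0.914, limma). Ddx58 was 121 ± 19.3 in SHAM, 124 ± 33.4 in OVX, 111 ± 19.0 in Prevention and 143 ± 27.6 in Treatment, and its change in Treatment against OVX was 0.23 (SE 0.18, adjusted p = 0.780, limma), or 0.10 without OVX 3 and 0.15 without Treatment 6. Zbp1, a sensor of Z-form nucleic acid, ran from 11.4 to 47.5 over the 24 libraries, and Trim25, the ligase that acts on Ddx58, from 119 to 236.

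The oligoadenylate synthetases, which make the messenger that activates RNase L, had unlike measured changes. Oas1a was 25.4 at the lowest, 39.7 at the median and 68.7 at the highest in SHAM, and 45.9, 63.4 and 91.5 in OVX. In Prevention it was 41.4, 39.7, 26.4, 36.1 and 46.3, and in Treatment 71.7, 38.2, 43.1, 88.4 and 39.3. Prevention again overlapped OVX only at its lower end, and Treatment split into 2 high libraries, 1 and 6, and 3 low ones.

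The change of Oas1a was 0.68 (SE 0.23, adjusted p = 0.795, limma) in OVX against SHAM and -0.77 (SE 0.26, adjusted p = 0.116) in Prevention against OVX. Oas1b, with the same ISRE letters, had changes of -0.10 (SE 0.10) and 0.10 (SE 0.11). It was 759 to 835 in SHAM, 674 to 789 in OVX, 714, 753, 1118, 688 and 722 in Prevention, and 1134, 691, 680, 836 and 743 in Treatment. The 2 high libraries, Prevention 3 and Treatment 1, are also the 2 highest in LOC257642, at 19.7 and 19.5 on the log2 scale. Whether that bears on Oas1b was not tested.

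Oas2 was 22.8 to 64.2 over the 24 libraries, Oasl 26.9 to 65.2 and Oasl2 380.4 to 629, and all 3 were within the spread in every comparison. Of the tetratricopeptide proteins that bind foreign RNA, Ifit3 was 163 ± 25.5 in SHAM, 196 ± 42.1 in OVX, 161 ± 19.1 in Prevention and 205 ± 29.6 in Treatment. Its change in Treatment against Prevention was 0.34 (SE 0.15, adjusted p = 0.894, limma), and 4 of 5 Treatment libraries lay above all of Prevention. Its neighbour Ifit2 was 234 ± 36.0, 264 ± 42.9, 248 ± 27.8 and 274 ± 13.2. Eif2ak2 (PKR), the kinase that halts translation, and Adar, which edits double-stranded RNA, were nearly level, at 935 to 1179 and 4116 to 5301 normalised counts over all libraries.

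Mx1, a dynamin-like GTPase, had the smallest p in OVX against SHAM. It was 87.5, 125 and 203 at the lowest, median and highest in SHAM and 118, 235 and 256 in OVX. In Prevention it was 88.1, 89.1, 235, 116 and 158, and in Treatment 144, 204, 182, 155 and 140.3. OVX libraries were above all SHAM libraries in 4 of 7, and Prevention 3 reached the OVX median.

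The change of Mx1 was 0.63 (SE 0.22, adjusted p = 0.795, limma) in OVX against SHAM and -0.63 (SE 0.24, adjusted p = 0.159) in Prevention against OVX, or -0.85 without Prevention 3. Mx2 had a change of 0.02 (SE 0.12) and 0.03 (SE 0.13) in the same comparisons. Its highest libraries were Treatment 1 at 1634 and Prevention 3 at 1349, the same 2 as for Oas1b.

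Rsad2 (viperin), which makes a chain-terminating nucleotide, was 50.1 at the lowest, 69.5 at the median and 118 at the highest in SHAM and 57.1, 128 and 139 in OVX, with a change of 0.52 (SE 0.22, adjusted p = 0.795, limma). OVX libraries fell into 4 between 128 and 139 and 3 between 57.1 and 80.2. Its neighbour Cmpk2, a nucleotide kinase, was 908 ± 80.9 in SHAM, 951 ± 67.5 in OVX, 929 ± 65.6 in Prevention and 877 ± 32.3 in Treatment, and its change in Treatment against OVX was -0.11 (SE 0.06, adjusted p = 0.712, limma). The remaining antiviral effectors ranged over the 24 libraries from 113 to 300.4 for Bst2 (tetherin), 102 to 254 for Ifitm3, which blocks viral entry, 100.2 to 248 for the GTPase Gbp2 and 32.5 to 120 for the nuclear body protein Sp100.

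**Figure D4:**
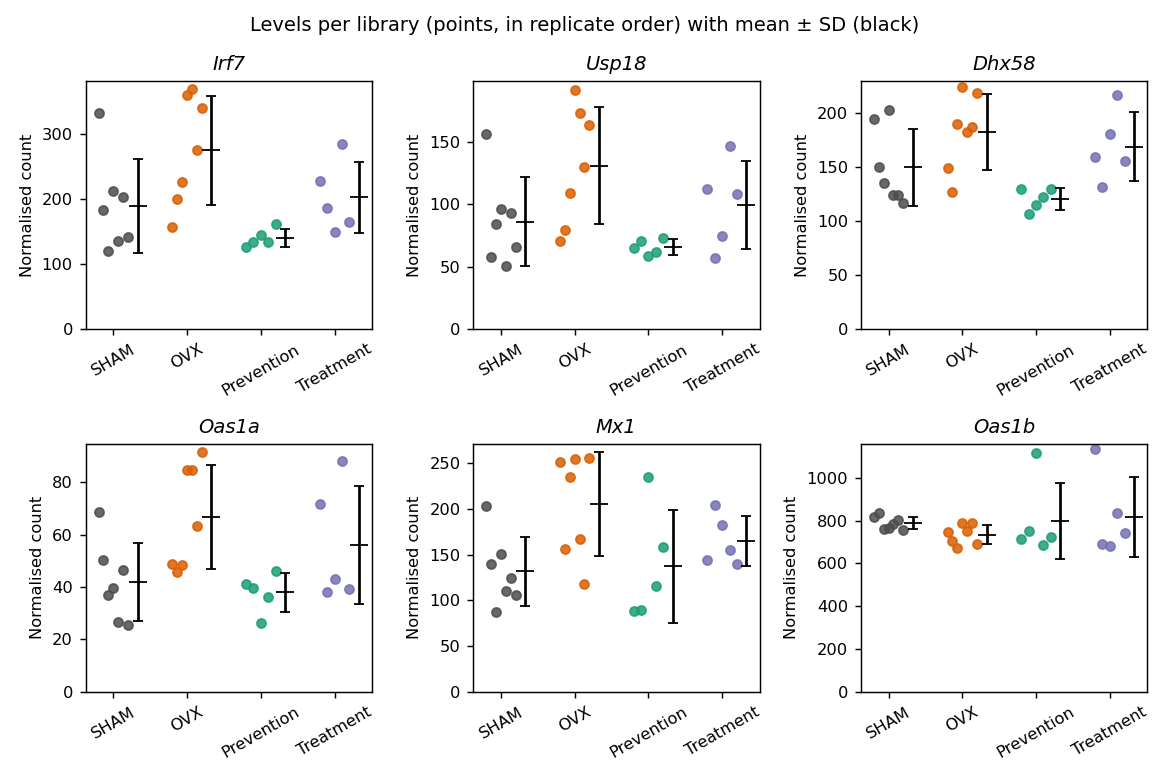
Normalised counts of Irf7, Usp18, Dhx58, Oas1a, Mx1 and Oas1b in every library (points in replicate order), with mean ± SD in black (n = 7 in SHAM and OVX, n = 5 in Prevention and Treatment); axes start at 0. Prevention points cluster low for the first 4 genes, OVX points spread widely, and for Oas1b 1 library each of Prevention (1118) and Treatment (1134) stands above the rest.

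In the ISG15 system, Usp18, the protease that removes ISG15 and restrains the interferon receptor, varied most of the 37 genes. It was 50.1 at the lowest, 83.7 at the median and 156 at the highest in SHAM, and 70.3, 129 and 191 in OVX. In Prevention it was 64.6, 70.5, 58.2, 61.7 and 72.9, and in Treatment 112, 56.8, 74.1, 147 and 108. Prevention lay in a narrow band, with 3 of 5 libraries below every OVX library and the other two just above the lowest.

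The change of Usp18 was 0.60 (SE 0.25, adjusted p = 0.795, limma) in OVX against SHAM and -0.90 (SE 0.27, adjusted p = 0.0897) in Prevention against OVX, and with the library set as a term the latter was -0.50. In Treatment against OVX it was -0.38 (SE 0.27), -0.20 without Treatment 2 and -0.22 with the set as a term. Isg15 itself was 79.0 ± 19.0 in SHAM, 96.6 ± 26.6 in OVX, 68.6 ± 5.58 in Prevention and 86.2 ± 20.3 in Treatment, and every Prevention library was inside the OVX range of 58.0 to 128. Its change in Prevention against OVX was -0.44 (SE 0.19, adjusted p = 0.204, limma).

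Dtx3l, a ubiquitin ligase that pairs with its neighbour Parp9, was tight in SHAM and wide in OVX. It was 196, 210.5 and 234 at the lowest, median and highest in SHAM and 183, 291 and 325 in OVX. The change was 0.26 (SE 0.12, adjusted p = 0.795, limma), with 5 OVX libraries above all SHAM libraries and 2 below them all. Parp9 ran from 234 to 388 over all libraries, Parp14 from 278 to 491 and Herc6, the rodent ligase for ISG15, from 307 to 569.

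Of the remaining genes, Rtp4, a transmembrane chaperone, was 69.8, 118 and 165 at the lowest, median and highest in SHAM and 71.3, 123 and 196 in OVX. In Prevention it was 94.2, 93.6, 75.0, 71.4 and 78.6, and in Treatment 131, 93.2, 125, 154 and 119. Treatment exceeded all of Prevention in 4 of 5 libraries. Its change was -0.63 (SE 0.20, adjusted p = 0.108, limma) in Prevention against OVX, or -0.38 with the library set as a term, and 0.58 (SE 0.22, adjusted p = 0.789) in Treatment against Prevention.

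Ifi44 was 233 ± 43.0 in SHAM, 277 ± 58.6 in OVX, 220.2 ± 7.61 in Prevention and 236 ± 36.2 in Treatment, and the Prevention libraries lay within 209 to 227. Its change was -0.30 (SE 0.14, adjusted p = 0.244, limma) in Prevention against OVX and -0.22 (SE 0.14, adjusted p = 0.727) in Treatment against OVX. Ifi27, a mitochondrial protein, ran from 1977 to 4408 over all libraries, and Ifi35 from 91.4 to 166.

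Lgals3bp, a secreted galectin ligand, moved with the choroid plexus markers. The library with the highest choroid plexus sum in each group was SHAM 7, OVX 2, Prevention 1 and Treatment 6, and these 4 were also the highest of their groups for Lgals3bp, at 1435, 1239, 956 and 1255. The medians were 625 in SHAM, 899.7 in OVX, 599.5 in Prevention and 580.3 in Treatment. Bst2 and Ifi35 were highest in the same library in 3 of 4 groups, and 13 of the 37 genes in none. The same count over all tested genes is not given here. The group ranges of the choroid plexus sum (8 of 9 listed markers) were 606 to 160154 in SHAM, 863 to 84636 in OVX, 1255 to 81239 in Prevention and 505 to 82461 in Treatment, and none of the 8 was at 0 in any library. The part of choroid plexus RNA in Bst2 and Ifi35 was not tested. The change of Lgals3bp in Treatment against OVX was -0.40 (SE 0.25, adjusted p = 0.727, limma), or -0.16 with the library set as a term, -0.23 with the choroid plexus covariate and -0.62 without Treatment 6.

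**Figure D5:**
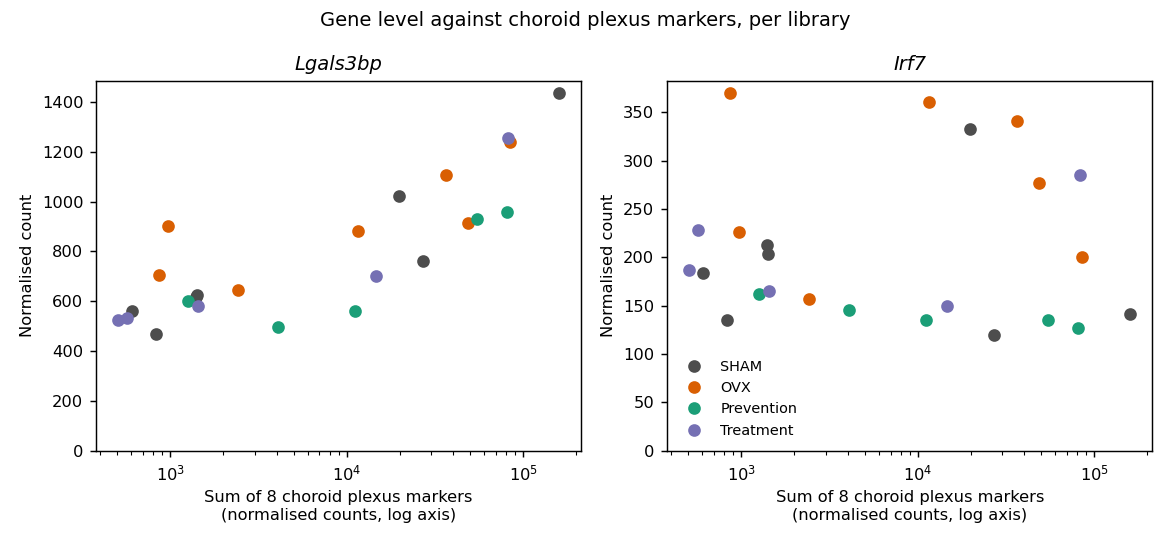
Normalised counts of Lgals3bp (left) and Irf7 (right) per library against the sum of 8 choroid plexus markers (log axis), coloured by group. Lgals3bp is highest in the libraries with the largest sums, up to 1435 at a sum of 160154, whereas the highest Irf7 value, 369.7, is in OVX 5, at a sum of 863.

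The promoters with and without an ISRE match can be set beside these changes. The median change of the 15 genes with a match and the 11 without was 0.22 and 0.09 in OVX against SHAM, -0.26 and -0.17 in Prevention against OVX, -0.10 and -0.05 in Treatment against OVX, and 0.18 and 0.10 in Treatment against Prevention. Against SHAM it was -0.05 and -0.04 in Prevention, and 0.13 and 0.07 in Treatment. The ranges overlapped: in Prevention against OVX, changes ran from -0.91 to 0.10 with a match and from -0.63 to -0.03 without. The comparisons share libraries, and the difference between genes with and without a match was not tested. Mx1, with the smallest p in OVX against SHAM, has no match in the window. The 12 genes without a promoter entry, Dhx58, Usp18, Rtp4 and Isg15 among them, are in neither group.

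Upstream of the listed genes, interferon transcripts were near 0. Of 11 ligand genes 9 were found and none was abundant enough to be tested, and their values summed to 2.06 to 9.90 normalised counts per library. All 6 receptor genes were tested, with Ifnar1 at 2707 to 3038, and 0 passed in any comparison. Likewise 0 of 6 other IRF genes, 0 of 10 genes of the sensing route to interferon, such as Traf3, Tbk1 and Mavs, and 0 of 7 inhibitors passed in any comparison (limma). At an unadjusted p under 0.05 in Prevention against OVX, 1 receptor gene, 2 other IRF genes and 2 genes of the sensing route were lower and 2 of that route were higher, beside 8.56% of all tested genes lower and 10.1% higher.

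A further 54 interferon-induced genes outside the list were searched, 47 were found and 44 tested. In OVX against SHAM 31 were higher and 13 lower, with a median of 0.10, and none passed. In Prevention against OVX 8 were higher and 36 lower, with a median of -0.16, and 1 passed, where 49 of 16119 genes (0.304%) did. It was Lgals9, a galectin of innate immunity, at 685 ± 84.2 in OVX and 479 ± 28.6 in Prevention (change -0.51, adjusted p = 0.0248, limma). With the library set as a term 0 of the 16119 genes passed, Lgals9 included, and without Prevention 3 only 1 gene did. Treatment had 15 of the 44 higher and 29 lower against OVX, and 35 higher and 9 lower against Prevention, with none passing. Of the antigen presentation genes in this list only B2m is given here, at 9151 ± 742 in OVX and 8220 ± 664 in Prevention. It did not pass, and it does not stand for the others.

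Microglia, which carry many of these transcripts, had marker sums of 13814 to 17432 in SHAM, 15454 to 17688 in OVX, 15151 to 17326 in Prevention and 15430 to 16323 in Treatment. Of the 12 markers, 11 were higher in OVX than in SHAM, and in Prevention against OVX 4 were higher and 8 lower. In Treatment 3 were higher and 9 lower against OVX, and 7 higher and 5 lower against Prevention. None passed in these comparisons (limma). At an unadjusted p under 0.05, 1 was higher in OVX against SHAM, where 2.88% of all tested genes were. On the lower side were 2 in Prevention against OVX, 1 in Treatment against OVX and 2 in Treatment against Prevention. The shares of all tested genes there were 8.56%, 3.09% and 2.62%. SHAM 1, the highest SHAM library for 21 interferon-induced genes, also had the highest microglial sum of SHAM, at 17432, whereas OVX 1, the lowest for 18, had the highest of OVX, at 17688. Of 6 endothelial markers tested, 3 were higher in OVX than in SHAM, 4 in Prevention than in OVX and 2 in Treatment than in Prevention. Of 5 astrocyte markers, 5, 3 and 3 were higher in the same comparisons, and none of either type passed (limma). The part of microglia, endothelial cells and astrocytes in these values was not tested.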

How the data were processed

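The 24 hippocampal RNA libraries were grouped by the labels. The deposited values are normalised counts, a signal per gene that the authors made with kallisto 0.43 and DESeq2 (no version given), per the submitters' processing notes. The sources used here do not give a genome build, annotation or filters. Read counts are not in the values, so no counting interval was computed. The log2(normalised count + 1) values of genes with a mean of at least 10 were fitted with limma 3.58.1 in R 4.3.3, with 4 group means, a mean-variance trend and Benjamini-Hochberg adjustment over 16119 genes (threshold 0.05). The fit was tested on simulated data. All listed genes are named by level; changes with SE and p are given for the 6 smallest p-values in each of 4 comparisons. Others were named after their values were seen. The members, roles, gene lists and cell markers were chosen with earlier results of these data known. Promoters came from RefSeq (GRCr8). Alternatives covered the pseudocount, filter, normalisation, fit and left-out libraries; the choroid plexus covariate and the pair of left-out libraries were added after seeing the data. Python 3.11.15 with matplotlib 3.10.9 made the figures.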

Additional observations from a re-analysis of the deposited data

Results flagged for a closer look

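Dixon's test at 95% was applied to the log2 values in 152 groups of libraries (38 genes in 4 groups). In 11, the gap between the highest or lowest library and its nearest neighbour was wide relative to the range. The test marks about 1 in 20 groups by chance alone. The values below are printed as normalised counts, on which scale the flagged set could differ. In SHAM, Parp9 reached 361.6 in replicate 3 with the next at 299, Herc6 reached 422.9 in replicate 2 with the next at 364, and Adar was 4421 in replicate 7 with the next at 4794. Among OVX libraries, Stat2 was lowest in replicate 2 at 1838 beside 1908, and Ifi35 in replicate 1 at 99.6 beside 132. In Prevention, Oas1b was 1118 in replicate 3 beside 753, and Gbp2 was 175.6 in replicate 5 beside 135.

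Treatment had 4 such values. Ifi27 was 2332 in replicate 5 beside 3105, Bst2 was 281.7 in replicate 6 beside 185, Zbp1 was 14.5 in replicate 2 beside 32.2, and Adar was 5301 in replicate 1 beside 4884.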

How the results depend on the processing

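The 24 named changes were recomputed under every alternative, 828 values in all. None reversed, 827 stayed on their side of the threshold, and Irf7 in Prevention against OVX passed with the choroid plexus covariate. That covariate gave 2 interferon-induced genes past the threshold, where 257 of 16119 genes passed, and no other alternative gave any in any comparison. Leaving out each library in turn, the median change of the 37 genes ran from 0.12 to 0.22 in OVX against SHAM, -0.29 to -0.16 in Prevention against OVX, -0.13 to -0.01 in Treatment against OVX, 0.08 to 0.19 in Treatment against Prevention, -0.07 to -0.01 in Prevention against SHAM and 0.03 to 0.15 in Treatment against SHAM.

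Counts over all genes moved more. In Prevention against OVX, 49 passed, 97 with a mean of at least 100, 5 with the pair of groups fitted alone, 0 with the library set as a term, 3 with the replicate block, 257 with the choroid plexus covariate, 25 without Prevention 3 and Treatment 1 together, and 1 to 481 without single libraries (1 without Prevention 3, 481 without OVX 7; it moved by over 1.5 times without Prevention 1 to 4, Treatment 1, any OVX library, or SHAM 4, 5 or 6). In Treatment against Prevention, 0 passed, 2 with a pseudocount of 8, and 0 to 11 without single libraries (11 without Treatment 2, 8 without Treatment 1, 2 without OVX 7). In Prevention against SHAM, 57 passed, 88 with a mean of at least 100, 156 with the pair alone, 0 with the set, 4 with the replicate block, 127 with the covariate, and 10 to 153 without single libraries (10 without Prevention 2, 153 without SHAM 5; over 1.5 times without Prevention 1 to 4, OVX 2 or 3, or any SHAM library but replicate 2). In Treatment against SHAM, 1 passed, 3 with quantile normalisation, 6 with the pair alone, 0 with the replicate block, 4 without the 2 libraries, and 1 to 5 without single libraries (over 1.5 times without Prevention 2 or 5, Treatment 1, or SHAM 1, 2 or 5). The cause was not tested. Same-numbered libraries did not deviate together: over 30 pairs r ran from -0.44 to 0.37, 8 exceeded 0.1, and 3 of 24 libraries correlated best with their own number, so the numbers were not taken as pairs. Quantile normalisation moved the median of all genes to between -0.012 and 0.0051. Depth is unknown and limits the genes at low values most, Ifit1, Zbp1 and Oas2 among them.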
